A study of Mus musculus with 6 samples.

Results

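Growth factor receptors of myeloid cells and the SOCS proteins that damp their signals were examined in dendritic cells grown from mouse bone marrow. The group held 10 genes, listed by symbol: Csf2ra, Csf2rb, Csf2rb2, Csf1r, Csf3r, Flt3, Cish, Socs1, Socs2 and Socs3. All 10 were found among the 19938 genes that had a probe set with 1 gene symbol, and where a gene had several such probe sets the one with the highest mean over the 6 arrays stood for it.

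Preparations labelled UV irradiated came from female C57BL/6J mice that had been injected with 2000000 bone marrow cells of a congenic donor (B6.SJL-Ptprca, CD45.1), after the donor's shaved back skin had received up to 8 kJ/m2 of ultraviolet (UV) radiation. Those labelled Control came from female C57BL/6J mice given 2000000 marrow cells of a naive B6.SJL-Ptprca donor. Mice were 6 to 10 weeks old at irradiation. In both groups the recipients' marrow was cultured for 5 days with GM-CSF and IL-4, both at 10 ng/ml, and cells bearing CD11c were then enriched with magnetic beads to above 95%. Each group had 3 preparations and so 3 Affymetrix arrays. Nothing in the labels ties the 3 preparations of a group to different recipients, and the p-values therefore measure a spread between preparations that may be technical. How the recipients were prepared for the transfer, and what share of the cultured cells was of donor origin, are not given in the sources used here.

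GM-CSF binds an alpha chain, encoded by Csf2ra, that pairs with a signalling beta chain. The beta chain activates the kinase JAK2, which phosphorylates STAT5, and STAT5 switches on Cish and other genes of the SOCS family, whose products then bind receptors or JAKs and weaken the signal. The same logic of cytokine, JAK, STAT and feedback holds for G-CSF and IL-4, whereas CSF1R and FLT3 are themselves tyrosine kinases. In marrow cultures GM-CSF carries myeloid precursors towards dendritic cells, while M-CSF through CSF1R favours macrophages and FLT3 ligand supports the dendritic cells found in lymphoid tissue.

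Promoter sequence is shown for 4 members because STAT proteins bind the motif TTCNNNGAA, in which N is any base, and the feedback genes are known STAT targets. RefSeq promoter entries of the build GRCm38.p6 were matched by symbol for 7 of the 10 members and span 250 bases before to 50 after the annotated start. The stretches below run from position -200 to position 30 relative to the start, 5′ to 3′ on the gene's own strand, with the motif in capitals. Those shown are the 3 that hold the motif and that of Socs1, the member whose groups did not overlap.
Cish, chr9:107296459-107296688, plus strand: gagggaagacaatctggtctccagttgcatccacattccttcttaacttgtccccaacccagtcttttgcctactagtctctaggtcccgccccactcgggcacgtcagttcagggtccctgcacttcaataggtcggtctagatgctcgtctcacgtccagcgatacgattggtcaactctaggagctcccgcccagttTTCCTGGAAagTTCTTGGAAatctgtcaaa
Socs3, chr11:117969337-117969566, minus strand: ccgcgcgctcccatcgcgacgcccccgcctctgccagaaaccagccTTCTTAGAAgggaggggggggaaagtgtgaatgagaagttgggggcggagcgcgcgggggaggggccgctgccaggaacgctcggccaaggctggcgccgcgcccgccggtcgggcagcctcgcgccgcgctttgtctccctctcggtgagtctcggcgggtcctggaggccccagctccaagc
Csf2rb2, chr15:78305692-78305921, minus strand: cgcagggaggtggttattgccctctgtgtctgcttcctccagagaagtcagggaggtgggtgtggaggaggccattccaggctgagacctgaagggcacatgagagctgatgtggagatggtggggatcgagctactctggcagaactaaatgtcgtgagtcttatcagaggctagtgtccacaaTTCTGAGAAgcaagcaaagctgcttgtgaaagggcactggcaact
Socs1, chr16:10785507-10785736, minus strand: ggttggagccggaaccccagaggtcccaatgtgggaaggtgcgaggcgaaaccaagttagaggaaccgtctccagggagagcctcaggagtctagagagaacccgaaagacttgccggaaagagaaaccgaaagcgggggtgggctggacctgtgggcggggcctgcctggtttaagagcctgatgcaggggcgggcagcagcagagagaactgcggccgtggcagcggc

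In the full windows Cish held the motif at positions 1 and 12 counted from the start, Socs3 at -154 and Csf2rb2 at -15. The window of Socs1 held none, nor did those of Csf2ra, Csf3r and Flt3. The motif reads the same on both strands, and it was present in 8.3% of all 32851 promoter windows of this length. TTC and GAA with any 4 bases between them, the spacing that STAT6 prefers, were found in none of the members' windows and in 6.95% of all windows. A match describes the letters and does not show that a factor bound.

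None of the receptor or SOCS genes passed the test between UV irradiated and Control preparations. Of the 10 genes, 9 passed the filter on dim genes, which required a mean log2 signal of at least 6.58, the 30th percentile of all genes, and Flt3 fell below it. Limma called 0 of these 9 at an adjusted p under 0.05, whereas 24 of all 13956 tested genes, or 0.172%, were called, each of them higher in the UV irradiated group. At an unadjusted p under 0.05 there was 1 member, Socs1, while 15.1% of all tested genes lay under that level. The members' median log2 difference, UV irradiated minus Control, was 0.0064, and over all tested genes it was 0.0016. For 7 of the 9 the 95% interval of the difference stayed within 0.25 of 0 on the log2 scale. The exceptions were Csf3r and Socs3, which varied most between arrays of the same group.

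**Figure D1:**
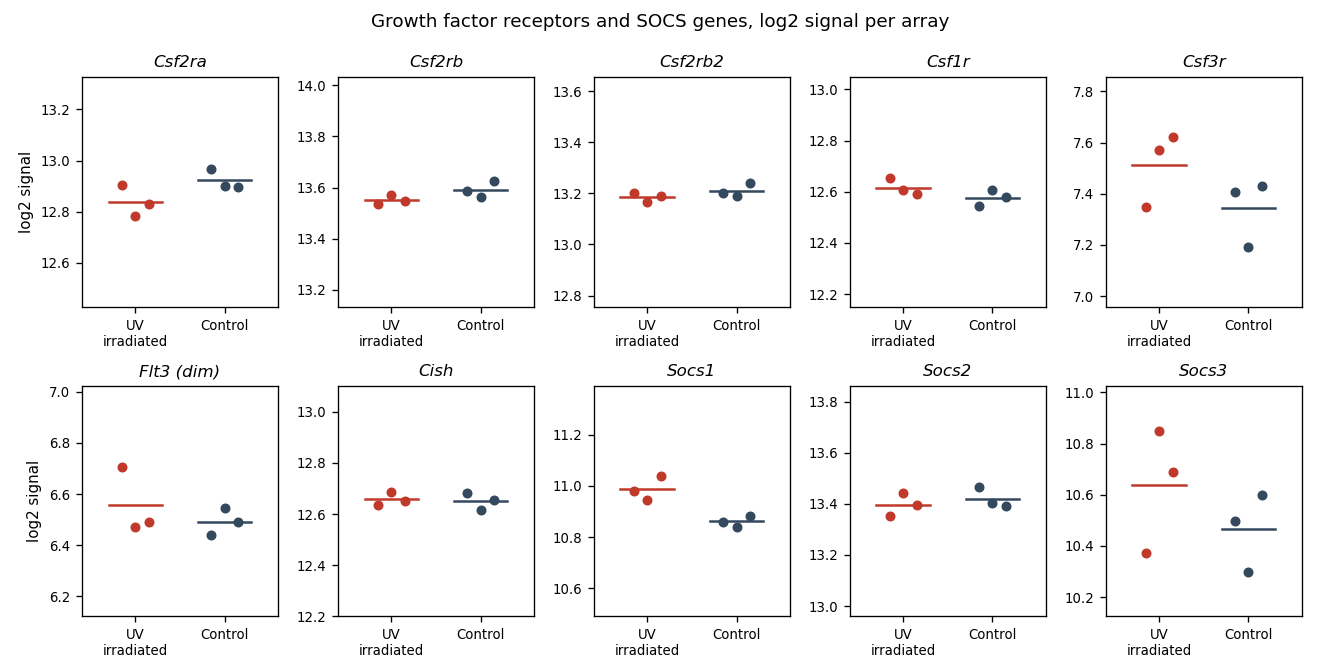
Log2 signal of each gene (vertical axis, the same span in every panel) on each of the 3 UV irradiated arrays (left, red) and the 3 Control arrays (right, dark blue), with lines at the group means and replicates in order from left to right. The groups lie apart for Socs1 and overlap for the other 9 genes.

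The GM-CSF receptor came first, since GM-CSF drove the cultures. Csf2ra, the alpha chain that binds GM-CSF (probe set 10468893), had log2 signals of 12.90, 12.78 and 12.83 on the UV irradiated arrays, against 12.97, 12.90 and 12.90 on the Control arrays. UV irradiated replicates 2 and 3 lay below every Control array, and replicate 1 reached into the Control range. Its difference of -0.084 (95% interval -0.20 to 0.034, or 0.870-fold to 1.02-fold) had a limma adjusted p of 0.469. The interval rests on the spread between these preparations and on the normalization, and does not bound every shift. Without UV irradiated replicate 1 the groups did not overlap and the difference was -0.12, with a limma adjusted p of 0.43. When array medians were centred, with all arrays kept, the difference was -0.14 and the UV irradiated group was lower without overlap. In that fit the limma unadjusted p was 0.0278 and the adjusted p 0.187.

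The beta chains were the steadiest members of the group. Csf2rb, the common beta chain shared by the receptors for GM-CSF, IL-3 and IL-5 (probe set 10425066), had 13.54, 13.57 and 13.55 on the UV irradiated arrays, against 13.59, 13.56 and 13.63 on the Control arrays. Csf2rb2, a second mouse beta chain that serves the IL-3 receptor (probe set 10430302), had 13.20, 13.17 and 13.19 on the UV irradiated arrays, against 13.20, 13.19 and 13.24 on the Control arrays. Both pairs of groups overlapped. The differences were -0.040 for Csf2rb (fold 0.972, interval 0.906 to 1.04, limma adjusted p = 0.707) and -0.024 for Csf2rb2 (fold 0.983, interval 0.917 to 1.05, limma adjusted p = 0.832). The within-group standard deviation of Csf2rb2 was 0.023 and that of Csf2rb 0.026, at the 2.64th and 4.00th percentile of all tested genes. The 2 genes are closely related copies and the probes' sequences were not used here, so whether each probe set reads its own gene alone was not tested.

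The receptor for M-CSF, Csf1r (probe set 10456071), which marks monocytes and macrophages, had 12.65, 12.61 and 12.59 on the UV irradiated arrays, against 12.54, 12.61 and 12.58 on the Control arrays. The groups overlapped, with UV irradiated replicate 1 highest and Control replicate 1 lowest. Its difference was 0.039 (interval -0.066 to 0.14, limma adjusted p = 0.725), and it turned to -0.017 when array medians were centred. Among 8 other macrophage markers past the dim filter, the complement gene C1qb was called (0.63 higher, limma adjusted p = 0.0199). At a limma unadjusted p under 0.05, 4 in all were higher. Over all tested genes 0.172% were called and 9.60% were higher at an unadjusted p under 0.05. With Csf1r included, 6 macrophage markers were higher and 3 lower in value. The lower ones, named after their values were seen, were Mrc1 (-0.096, without overlap), Mertk (-0.056) and Cd68 (-0.011). The summed linear signal of those 8 ran from 20606 to 21138 on the UV irradiated arrays and from 19737 to 20447 on the Control arrays, and the part of macrophage RNA in the Csf1r values was not tested. In bulk arrays such as these, fewer cells of a type and less RNA per cell cannot be told apart.

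Csf3r, the G-CSF receptor of neutrophils and their precursors (probe set 10508074), had a wider spread between arrays. On the UV irradiated arrays it had 7.35, 7.57 and 7.62, against 7.41, 7.19 and 7.43 on the Control arrays. UV irradiated replicates 2 and 3 exceeded every Control array, while replicate 1 lay below 2 of them. The difference of 0.17 (fold 1.12, interval 0.975 to 1.30) had a limma adjusted p of 0.403. Its within-group standard deviation, 0.14, stood at the 89.8th percentile of tested genes.

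Neutrophil markers are given beside Csf3r because it is one of them. Of the 12 in the list, Csf3r included, all passed the dim filter. Limma called 2 of them higher, lactoferrin, Ltf (0.54, limma adjusted p = 0.0199), and S100a8 (0.77, limma adjusted p = 0.0365). Over all tested genes 0.172% were called. At an unadjusted p under 0.05, 8 were higher, a level at which 9.60% of all tested genes were higher. In value 10 were higher and 2 lower. The largest differences were those of Ngp (1.03), Ly6g (0.88) and S100a8. Camp (-0.019), Elane (-0.035) and Mpo (0.044), of neutrophil granules, had differences near 0. Apart from Ltf, these genes were named after their values were seen. The summed linear signal of the 11 other markers was 12677 to 13381 on the UV irradiated arrays, against 9330 to 10055 on the Control arrays. Cxcr2 and Mmp8 made up 66.8% to 76.8% of that sum. Without these 2, picked after their values were seen, the other 9 summed to 3437, 4328 and 4202 on UV irradiated replicates 1 to 3. On Control replicates 1 to 3 they summed to 2839, 2337 and 2227. The sum of the 9 was lowest within its group on UV irradiated replicate 1, as Csf3r was, but the sum of all 11 was highest there. Among Control arrays the sum of the 9 was highest on replicate 1, and Csf3r was highest on replicate 3. The part of neutrophil RNA in the Csf3r values was not tested.

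Flt3, the receptor for FLT3 ligand (probe set 10535780), was the only dim member. It had 6.70, 6.47 and 6.49 on the UV irradiated arrays, against 6.44, 6.55 and 6.49 on the Control arrays, so that the groups overlapped and 5 of 6 values lay below the dim threshold. Tested without the filter, its difference was 0.064 (interval -0.099 to 0.23, limma adjusted p = 0.734). The other 10 dendritic cell markers of the list, Itgax (CD11c) among them, all passed the filter.

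The feedback genes most closely tied to STAT5 had differences near 0. Cish, which encodes the SH2 protein CIS (probe set 10588577) and whose promoter above carries the motif at 2 places, had 12.63, 12.68 and 12.65 on the UV irradiated arrays, against 12.68, 12.61 and 12.66 on the Control arrays. The groups lay over each other, with a difference of 0.0064 and a fold of 1.00 (interval 0.934 to 1.08, limma adjusted p = 0.963). Socs2, another STAT5 target and a brake on growth hormone signalling (probe set 10394674), had 13.35, 13.44 and 13.40 on the UV irradiated arrays, against 13.47, 13.40 and 13.39 on the Control arrays. Its groups overlapped too, and its difference was -0.024 (fold 0.984, interval 0.911 to 1.06, limma adjusted p = 0.856). A second Socs2 probe set, 10372069, gave a difference of -0.023 (interval -0.15 to 0.11).

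**Figure D2:**
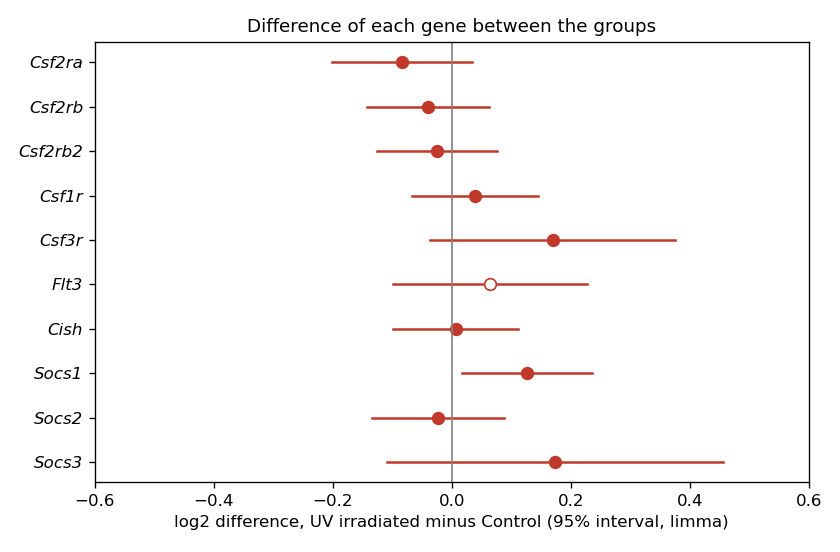
Log2 difference of each gene, UV irradiated minus Control (horizontal axis), with its 95% interval from limma over 3 arrays per group; the open circle marks Flt3, fitted without the dim filter. The interval of Socs1 (0.018 to 0.23) lies above 0, and those of the other 9 genes include 0.

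Socs3, which binds the gp130 and G-CSF receptors and blocks their JAKs (probe set 10393449), varied most. It had 10.37, 10.85 and 10.69 on the UV irradiated arrays, against 10.50, 10.30 and 10.60 on the Control arrays. UV irradiated replicates 2 and 3 stood above every Control array and replicate 1 below 2 of them, as for Csf3r. The difference of 0.17 (fold 1.13, interval 0.927 to 1.37) had a limma adjusted p of 0.536, and its within-group standard deviation of 0.20 stood at the 96.7th percentile. A second Socs3 probe set, 10383010, had 8.26, 8.18 and 8.58 on the UV irradiated arrays, against 8.11, 8.10 and 8.68 on the Control arrays. There replicate 3 was highest in both groups, and the difference was 0.044 (interval -0.33 to 0.42), so the probe sets of Socs3 gave different orders of the arrays.

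UV irradiated replicate 1 stood farthest from the Control arrays on principal component 1 (14.1, against 4.31 and 3.79 for the other UV irradiated arrays and -10.8 to -2.01 for Control). Without it the difference of Socs3 was 0.31 (limma adjusted p = 0.258) and that of Csf3r 0.25 (limma adjusted p = 0.266), and neither gene's groups overlapped. With that array left out, 3 members were higher without overlap (Csf3r, Socs1 and Socs3) and 1 was lower (Csf2ra), while 17.3% of all tested genes were higher and 13.7% lower without overlap. With single arrays left out the difference of Socs3 ran from 0.067 to 0.31 and that of Csf3r from 0.094 to 0.25, and no member was called.

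**Figure D3:**
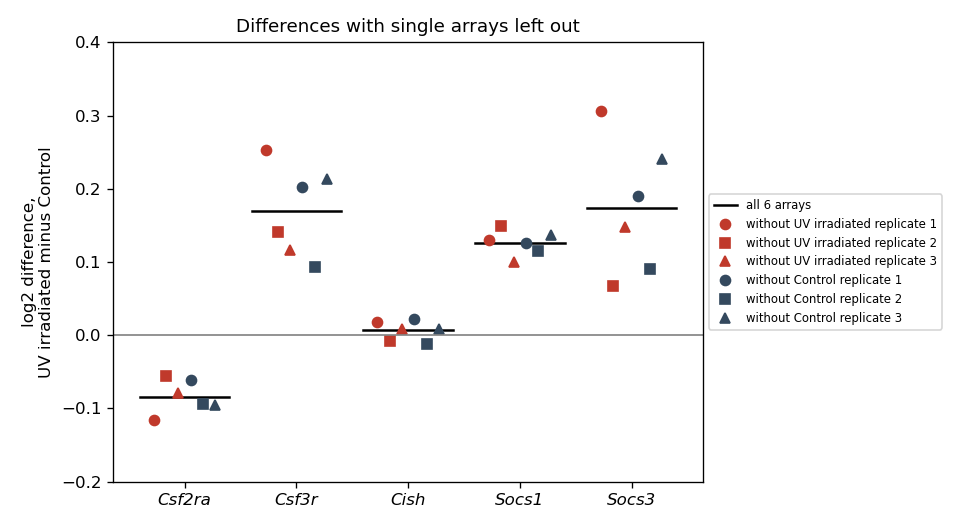
Log2 difference, UV irradiated minus Control (vertical axis), of 5 genes with all 6 arrays (black line) and with each array left out (red for UV irradiated, dark blue for Control; circle, square and triangle for replicates 1, 2 and 3). Socs1 stays between 0.10 and 0.15, whereas Socs3 runs from 0.067 to 0.31.

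Socs1 was the member whose groups did not overlap. It encodes an inhibitor that binds JAKs directly and limits signalling by interferon gamma and IL-4, among others (probe set 10437668). It had 10.98, 10.94 and 11.04 on the UV irradiated arrays, against 10.86, 10.84 and 10.88 on the Control arrays. Every UV irradiated array therefore exceeded every Control array, by a small step. The difference was 0.13 (SE 0.047, fold 1.09, interval 1.01 to 1.18) with an unadjusted p of 0.0277 and a limma adjusted p of 0.267, and so did not pass. Non-overlap in the higher direction was met by 1 of 9 members and by 12.4% of all tested genes, and in the lower direction by 0 members and by 9.37%. With single arrays left out the Socs1 difference lay between 0.10 and 0.15 (limma adjusted p from 0.276 to 0.493). When array medians were centred it was 0.070 and the groups overlapped.

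The genes whose values followed those of Socs1 most closely over the 6 arrays, by Pearson correlation among 13947 tested genes that are not members, were Ppp1r16b (0.995), Smarcd2 (0.995) and Fam43a (0.993). Smarcd2 is a subunit of the SWI/SNF chromatin remodelling complex. Their differences were 0.086, 0.18 and 0.22, with limma adjusted p-values of 0.401, 0.197 and 0.149. Their groups did not overlap either, which picking them for correlation with Socs1 makes likely in advance. With 6 arrays and so many genes, correlations of this size describe the arrays and are no test.

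Around the receptors, 7 lists held 87 genes, of which 81 had a probe set with 1 symbol and 74 passed the dim filter. Limma called 0 of the 74 in either direction. At an unadjusted p under 0.05, 6 were higher and 3 lower, 12.2% in all, while 9.60% of all tested genes were higher and 5.49% lower at that level. Groups did not overlap for 9 higher genes (12.2%) and 4 lower ones (5.41%), beside 12.4% and 9.37% of all tested genes.

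**Figure D4:**
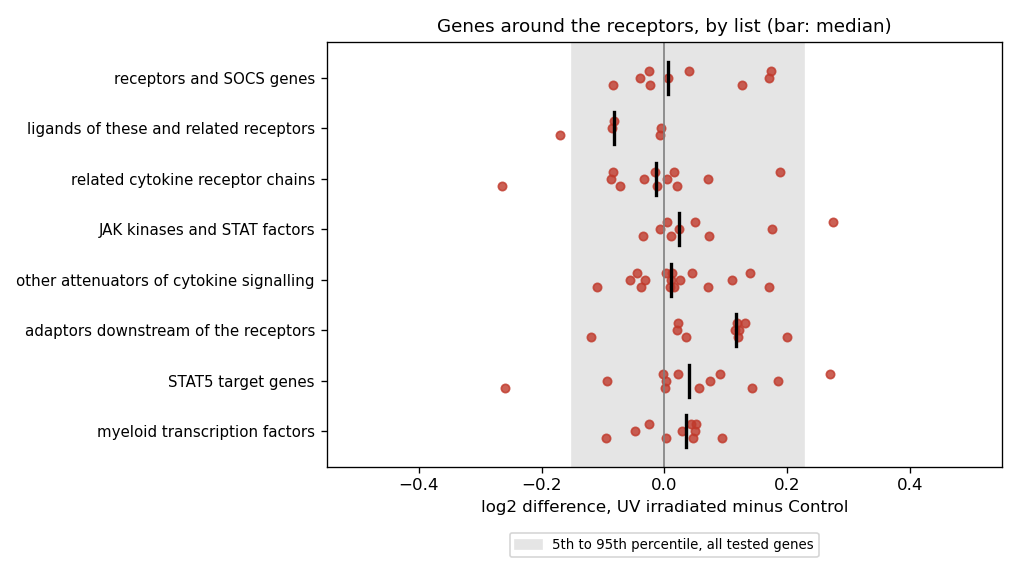
Log2 difference, UV irradiated minus Control (horizontal axis), of every gene past the dim filter in the members' group and in 7 lists around it; each point is a gene, bars are list medians and the grey band spans the 5th to 95th percentile of all tested genes (-0.15 to 0.23). List medians run from -0.081 (ligands) to 0.12 (adaptors).

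Of 11 ligands of these and related receptors, 6 were dim, including GM-CSF (Csf2) and IL-4 (Il4), named after their values were seen because the medium supplied them. All 5 tested ligands had lower values in the UV irradiated group (median -0.081), and none was called. Csf1, which encodes M-CSF, had 12.12, 12.32 and 12.34 on the UV irradiated arrays, against 12.46, 12.32 and 12.51 on the Control arrays, a difference of -0.17 (limma adjusted p = 0.341). Csf3, which encodes G-CSF, differed by -0.081 without overlap (limma adjusted p = 0.446).

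Among related receptor chains, 5 of 12 tested genes had higher and 7 lower values (median -0.013), with 0 called. Il6st, the gp130 chain that SOCS3 binds, had 12.05, 12.49 and 12.35 on the UV irradiated arrays, against 12.62, 12.42 and 12.63 on the Control arrays. The groups overlapped, and the difference was -0.26 (limma adjusted p = 0.316). Kit, the stem cell factor receptor of progenitors and mast cells, differed by 0.19 (limma adjusted p = 0.363). The IL-4 receptor chain Il4ra differed by -0.033 with overlap and the IL-3 receptor alpha chain Il3ra by -0.071 without overlap. Both were named after their values were seen because they pair with the culture's cytokine and with the beta chains.

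JAK kinases and STAT factors had 7 of 9 tested genes higher in value (median 0.023) and 0 called. Stat4, which carries IL-12 signals, differed by 0.27 (interval -0.0042 to 0.55, limma adjusted p = 0.338), and the kinase Tyk2 by 0.18 (limma adjusted p = 0.386). Genes of the GM-CSF pathway itself were also named after their values were seen. Jak2 differed by 0.050 without overlap (interval -0.050 to 0.15). Stat5a differed by 0.073 (-0.044 to 0.19) and Stat5b by 0.0042 (-0.13 to 0.13), both with overlap. Stat6, which carries IL-4 signals, differed by -0.035 (-0.14 to 0.072).

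The other attenuators of cytokine signalling were 16 tested genes, 11 higher and 5 lower in value (median 0.011), with 0 called. Ptpn6, the phosphatase SHP-1 that dephosphorylates JAKs and receptors in blood cells, had 11.07, 10.98 and 10.96 on the UV irradiated arrays, against 10.84, 10.90 and 10.76 on the Control arrays. Its groups did not overlap, yet the difference of 0.17 did not pass (limma adjusted p = 0.221). Socs6, a further SOCS family member, differed by -0.11 without overlap (limma adjusted p = 0.325).

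Adaptors downstream of the receptors had the highest list median, 0.12, with 9 of 10 tested genes higher in value and 0 called. The phosphoinositide 3-kinase subunits Pik3cg and Pik3cd, enriched in leukocytes, differed by 0.20 and 0.13 without overlap (limma adjusted p = 0.197 and 0.298).

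STAT5 target genes other than the members had 9 of 12 higher in value (median 0.039) and 0 called. Myc, a driver of cell growth, had 11.32, 11.27 and 11.43 on the UV irradiated arrays, against 11.11, 11.14 and 10.95 on the Control arrays. Its difference of 0.27 (fold 1.21) had the smallest limma adjusted p of the 74 genes, 0.157, and Ccnd1, which encodes the G1 cyclin D1, differed by 0.19 (limma adjusted p = 0.255). Neither gene's groups overlapped. Pim1, a kinase gene that STAT5 activates directly, differed by 0.0025 (interval -0.13 to 0.13) and was named after its value was seen. Bcl2, also named after its value was seen, differed by -0.26 with overlap (limma adjusted p = 0.305).

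Of the 10 myeloid transcription factors, 7 were higher and 3 lower in value (median 0.036), with 0 called. Runx1, which acts in blood stem cells and myeloid cells, differed by 0.052 without overlap (limma adjusted p = 0.617). Klf4, a monocyte factor, differed by -0.095 with overlap (limma adjusted p = 0.563).

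Array medians ran from 7.16 to 7.18 in the UV irradiated group and from 7.19 to 7.23 in the Control group. Interquartile ranges were 3.71 to 3.75 in the UV irradiated group and 3.61 to 3.68 in the Control group. On both measures the groups lay apart by a small step. Correlations between arrays ran from 0.995 to 0.997 over 35556 probe sets. Itgax, the enriched antigen, differed by -0.044 (interval -0.14 to 0.057). Of 12 marker lists, called genes stood in those of dendritic cells (1 of 10 tested, Cd209a at 0.59), macrophages (1 of 9) and neutrophils (2 of 12). Over all tested genes 0.172% were called, and none in the fit with the replicate block. The other 9 lists held no called gene among genes past the dim filter. The dim eosinophil marker Epx, named after its value was seen, differed by 0.40 without overlap in the fit that kept dim genes (limma adjusted p = 0.0479). The other dim eosinophil markers were Il5ra (-0.11, lower without overlap) and Ccr3 (0.0031). Among dim mast cell and basophil markers, Mcpt4 (-0.18, without overlap) and Fcer1a (-0.027) were lower. Mcpt8 (0.24), Cpa3 (0.31) and Ms4a2 (0.11) were higher, with overlap. These too were named after their values were seen. Among genes past the filter, the markers of smallest p in those 9 lists were F13a1 for monocytes (0.50), Cd34 for progenitors (0.76), Gata2 for mast cells and basophils (0.12), Prg2 for eosinophils (0.75), Cd79b for B cells (0.058), Cd8a for T and NK cells (-0.11), Spib for plasmacytoid cells (0.31), Pf4 for erythroid cells and platelets (0.21) and Pecam1 for stromal and endothelial cells (0.23). Values went both ways among tested markers of monocytes (3 higher, 2 lower), plasmacytoid cells (3 and 2) and stromal and endothelial cells (2 and 2). They also did for B cells (1 and 1) and for T and NK cells (1 and 1). In the remaining lists of those 9 no marker past the dim filter was lower in value. The stromal marker Col3a1, named after its value was seen, differed by -0.19 without overlap. The part of these cell types in the members' values was not tested.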

How the data were processed

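RNA of 6 preparations was measured on Affymetrix arrays. The authors deposited 1 log2 signal per probe set and array, made with RMA (background correction, quantile normalization and summary of probes), which the submitters' processing notes name with oligo and limma, without versions. The summary level, genome build and scan dates are not given in the sources used here.

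Columns were assigned through the labels, and the values were used as deposited. Probe sets were named through the platform annotation and RefSeq (GRCm38.p6, used for names and promoters). Of 35556 probe sets, 21789 had 1 symbol, 1621 several and 12146 none listed. Those without exactly 1 symbol were not used. A dim filter at the 30th percentile of gene means left 13956 genes. The comparison used limma 3.58.1 (R 4.3.3; lmFit, eBayes, two-sided, UV irradiated minus Control), with Benjamini-Hochberg adjustment over all tested genes and a call at an adjusted p under 0.05. An exact permutation test of 3 against 3 cannot go below 0.1. The code was tested on simulated data. The number of arrays limits precision. Figures used matplotlib 3.10.9.

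The members and lists were chosen with earlier results of these data known. Named were all members, the 2 genes of smallest p in each pathway list, the 1 marker of smallest p in each marker list (both among genes past the dim filter), Itgax, and the 3 genes most correlated with the member of smallest p among those without overlap. Other genes, chosen for their role or their values after the values were seen, are identified as such. Summed signals of markers add 2 to the power of the log2 values. Alternatives were the replicate block, dim filters, normalizations, variance models, probe set choices, a looser threshold and leaving out each array.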

Additional observations from a re-analysis of the deposited data

How the results depend on the processing

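Under every alternative run, 0 members and 0 pathway list genes were called. Members without overlap numbered 1 (Socs1), but 4 with centred array medians (Csf2ra, Csf2rb, Csf2rb2 and Socs2, all lower, beside 23.4% of all tested genes lower and 5.39% higher), 2 with quantile normalization (Socs1 higher, Csf2rb lower, beside 9.44% higher and 9.21% lower) and 1 to 4 with single arrays left out: 4 without UV irradiated replicate 1, 4 without Control replicate 2 and 2 without UV irradiated replicate 2. Over all tested genes, leaving out single arrays gave 15.8% to 18.7% higher and 13.04% to 16.02% lower without overlap. Centring also turned Csf1r to -0.017, Cish to -0.050 and Runx1 to -0.0046, since it put the tested genes' median difference at -0.055. With single arrays left out, Cish ran from -0.012 to 0.022. The causes of the other shifts were not tested.

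The count over all tested genes was 24. It was 70 at an adjusted p under 0.10, 43 with array weights, 45 with an intensity trend and robust prior, 28 with centred medians (22 higher, 6 lower, beside 24 higher and 0 lower), and 0 when all probe sets were tested (limma; unadjusted p under 0.05 for 1801 higher and 1708 lower). Single arrays left out gave 1 to 32: 1 each without Control replicate 1, UV irradiated replicate 2 or UV irradiated replicate 3, and 3 without Control replicate 3.

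Replicate numbers did not pair the arrays (correlations of same-numbered deviations -0.13, -0.22 and 0.15). A fit with the replicate block called 0 genes in limma (unadjusted p under 0.05 for 1286 higher and 666 lower). In this balanced layout the block cannot change the members' differences, so their equality with and without it is no check of them.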
